A study of Mus musculus with 14 samples.

Results

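Processed pseudogenes are copies of spliced messenger RNAs that were written back into the genome, and 183 of the 3956 genes in the authors' deposited Kmt2a table are annotated as such. The members are all rows whose biotype in that table is processed pseudogene (170 genes) or transcribed processed pseudogene (13 genes). Each was then looked up by its gene ID in the authors' deposited Men1 table, which holds 772 genes.

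The libraries are of total mouse lung RNA, per the tissue labels. There were 3 libraries of Kmt2a knockout mice and 3 wild-type libraries labelled with the same line, and 4 libraries of Men1 knockout mice and 4 of their own wild-type mice. Kmt2a encodes MLL, a histone H3 lysine methyltransferase, and Men1 encodes menin, a protein that binds MLL. The labels give no strain, age, sex, promoter or Cre driver, and the protocol for extraction speaks of peritoneal macrophages in place of lung. No row is named Kmt2a in the Kmt2a table or Men1 in the Men1 table. Each table holds only genes that passed a threshold between knockout and wild type, so under these names neither gene passed that of its own table. Their levels are not given, and the loss of Kmt2a and of Men1 could not be checked on these data.

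A processed pseudogene arises when the enzymes of a LINE element reverse-transcribe a messenger RNA and insert the copy elsewhere. It therefore usually has no introns, no promoter of its own and, once mutated, no open reading frame, and it resembles the coding gene it came from, its parent, base for base. Genes that are expressed strongly in the germ line, above all those of ribosomal proteins and of glycolysis, have left the most copies. Reads from a young copy and from its parent can be hard to tell apart.

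The resemblance of members and parents was close. Of the 183 members, 176 matched the transcript of another gene over at least 50% of their length with at least 80% identity, and this gene is called the parent below. The identity to the parent had a median of 99.2% and ran from 81.9% to 100%. It was at least 95% in 156 members. In 154 members a run of at least 100 bases was identical to the parent, and 124 members had another gene in the annotation that was at least 98% identical over at least 80% of their length. A read that falls in such a run matches both genes equally, and how the authors' counting placed it is not given in the sources used here. Of the members, 165 have a single exon, and 172 have a parent with several exons.

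The following windows of 120 bases come from the GENCODE M21 transcripts of build GRCm38. They belong to members among those that differed most between the groups, and are shown beside the same stretch of the parent. Capitals mark the bases at which a pseudogene and its parent differ. Gm8730 (chr8:102865406-102865525, minus strand) and Gm9625 (chr13:67810519-67810638, plus strand) are copies of Rplp0, which encodes the acidic stalk protein P0 of the large ribosomal subunit, and the window covers coding bases 274 to 393 of Rplp0.

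Gm8730: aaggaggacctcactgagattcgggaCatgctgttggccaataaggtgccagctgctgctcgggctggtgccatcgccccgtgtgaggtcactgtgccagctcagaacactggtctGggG

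Gm9625: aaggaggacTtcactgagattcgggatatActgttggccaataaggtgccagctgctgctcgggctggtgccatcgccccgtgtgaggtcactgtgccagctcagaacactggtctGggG

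Rplp0: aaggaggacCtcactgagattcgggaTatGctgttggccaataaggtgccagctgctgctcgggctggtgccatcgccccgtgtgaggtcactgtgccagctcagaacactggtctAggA

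Gm8730 differs from Rplp0 at 3 bases of this window and Gm9625 at 4. Rps3a3 (chr13:108671128-108671247, plus strand) and Rps3a2 (chr14:88123164-88123283, minus strand) are copies of Rps3a1, a protein of the small ribosomal subunit, shown over its coding bases 526 to 645.

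Rps3a3: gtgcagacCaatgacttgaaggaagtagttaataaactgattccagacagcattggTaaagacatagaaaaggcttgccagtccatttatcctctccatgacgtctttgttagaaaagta

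Rps3a2: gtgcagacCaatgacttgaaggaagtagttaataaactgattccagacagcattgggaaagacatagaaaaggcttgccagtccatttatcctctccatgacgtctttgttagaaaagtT

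Rps3a1: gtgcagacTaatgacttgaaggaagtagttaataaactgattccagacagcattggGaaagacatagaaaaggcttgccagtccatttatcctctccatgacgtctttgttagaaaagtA

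Both copies differ from Rps3a1 at 2 bases, and share the first of these. Rpl34-ps1 (chr6:71124622-71124741, plus strand) is a copy of Rpl34, a protein of the large subunit, shown over coding bases 13 to 132, in which 1 base differs.

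Rpl34-ps1: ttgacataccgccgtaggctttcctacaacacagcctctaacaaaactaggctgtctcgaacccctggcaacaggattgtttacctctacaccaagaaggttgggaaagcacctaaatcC

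Rpl34: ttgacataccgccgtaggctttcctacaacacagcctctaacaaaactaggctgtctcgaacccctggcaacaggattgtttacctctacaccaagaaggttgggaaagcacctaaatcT

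Gm8666 (chrX:75475294-75475413, minus strand) was higher in the knockout and is a copy of Hmgn1, which encodes a nucleosome-binding protein. The window covers coding bases 110 to 229 of Hmgn1, and 2 bases differ.

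Gm8666: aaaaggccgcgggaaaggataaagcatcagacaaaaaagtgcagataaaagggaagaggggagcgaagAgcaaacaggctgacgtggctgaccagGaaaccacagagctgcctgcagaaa

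Hmgn1: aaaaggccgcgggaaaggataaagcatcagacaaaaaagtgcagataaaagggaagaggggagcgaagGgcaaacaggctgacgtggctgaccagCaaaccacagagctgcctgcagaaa

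In Kmt2a knockout lung, most of the members were lower than in wild-type lung. The authors' deposited Kmt2a table is limited to adjusted p values below 0.05, so all 183 members passed that threshold by the way the table was made, and what can be described is their direction and size. Of the 183, 159 were lower and 24 were higher in the knockout, so that 86.9% were lower, and all 13 transcribed processed pseudogenes were among the lower ones. Of all 21574 genes over which the authors adjusted their p values, a number that follows from the deposited p and adjusted p, 18.3% were called, 9.07% lower and 9.27% higher. Within the table, 49.5% of all genes and 45.5% of the protein-coding genes were lower. How many processed pseudogenes were among the genes tested but not called is not known here.

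The size of the difference was also shifted. Values are normalized counts, that is, read counts divided by a size factor for the depth of each library, and a log2 ratio compares the knockout mean with the wild-type mean, positive where the knockout is higher. The median log2 ratio was -1.39 over the 179 members with both means above 0, while it was 0.31 over all genes of the table and 0.43 over its protein-coding genes. The shift was not particular to processed pseudogenes. Among the 42 genes of other pseudogene biotypes in the table, 32 were lower and 10 higher, with a median log2 ratio of -1.80. With the 4 members that have a mean of 0 set at their bounds, the median stayed at -1.39. With 1 normalized count added to each mean, 122 members were at least 2-fold lower in the knockout and 19 at least 2-fold higher. The members together summed to 28520 normalized counts in the knockout and 88830 in the wild type.

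**Figure D1:**
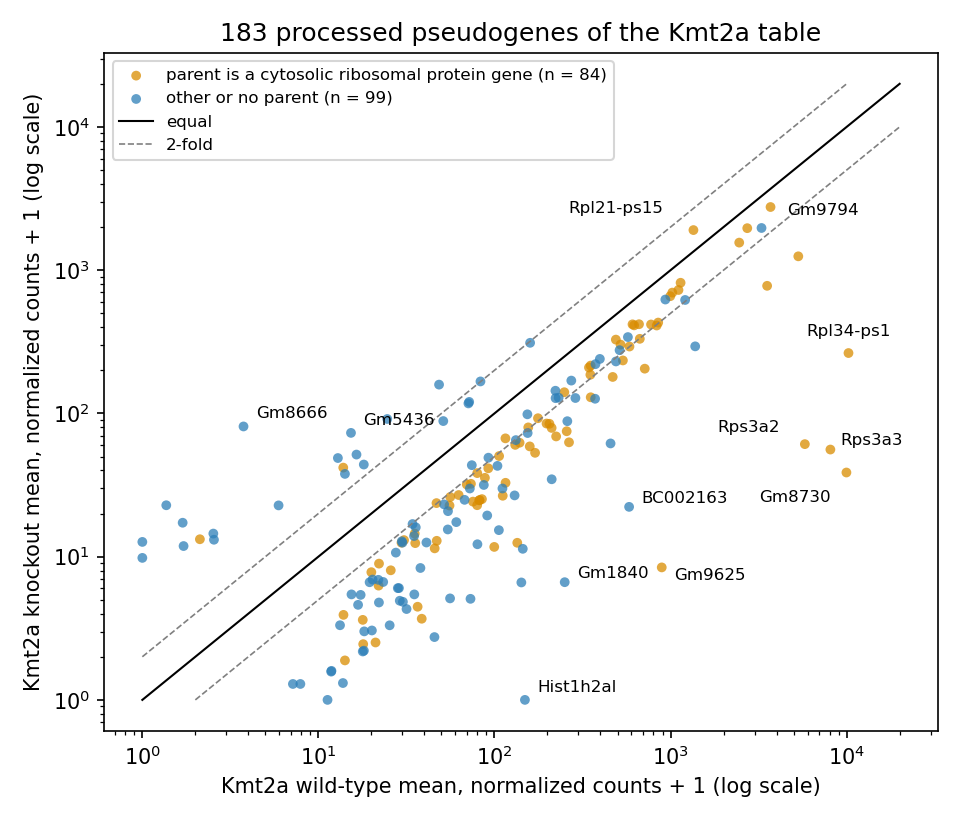
Mean normalized counts of each of the 183 members in Kmt2a knockout lung (vertical axis) against wild-type lung (horizontal axis), both with 1 added and on log scales; the solid line marks equal means and the dashed lines a 2-fold difference. Of the members, 159 lie below the line of equal means and 24 above it, and a few copies of ribosomal protein genes lie far below it.

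The deposited Kmt2a means could be resolved into the whole reads of 3 knockout and 3 wild-type libraries, called a, b and c here, for all 183 members. The letters carry no order, and a letter in one group has nothing to do with the same letter in the other. The sum over the members was 29360, 30160 and 26040 normalized counts in the knockout libraries, and 89530, 75410 and 101500 in the wild-type libraries. The groups did not overlap in this sum, nor without the 4 members of the highest wild-type means, when it was 28840, 29740 and 25740 in the knockout, against 51100, 53640 and 59470 in the wild type. In 182 of the 183 members no library of one group overlapped the other, against 97.2% of the 3870 resolved genes of the table, a share near that of the members. The exception was Hmgb1-ps8, a copy of the chromatin protein gene Hmgb1. Single values are precise for the members with many reads only, and 14 members have at most 3 reads over all libraries of one group.

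Several of the largest fold differences were in copies of ribosomal protein genes. The histone copy Hist1h2al, described below, was at least 158-fold lower in the knockout. Gm8730 stood at 40.8, 36.7 and 35.5 normalized counts in the knockout libraries, against 8775, 9978 and 11160 in the wild-type libraries. The mean was 37.7 ± 2.80 in the knockout and 9971 ± 1193 in the wild type (SD, n = 3 each), 265-fold lower in the knockout. Every knockout library was far below every wild-type library, and the highest library was 1.15 times the lowest in the knockout and 1.27 times in the wild type. Its sister copy Gm9625 stood at 7.65, 5.25 and 9.33 normalized counts in the knockout and at 716, 930 and 1023 in the wild type, 120-fold lower in the knockout. The third copy of Rplp0, Gm14165, was weak, with means of 1.45 ± 1.82 in the knockout and 17.0 ± 4.56 in the wild type. Its log2 ratio was -3.55, -5.32 without knockout library b and -2.96 without knockout library c.

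The copies of Rps3a1 fell in the same order of size. Rps3a3 stood at 60.4, 70.8 and 33.6 normalized counts in the knockout libraries, against 10360, 4168 and 9727 in the wild-type libraries, 147-fold lower by the means. Rps3a2 stood at 70.6, 51.6 and 57.9 in the knockout and at 6889, 2664 and 7816 in the wild type, 96.5-fold lower by the means. In both genes wild-type library b was at less than 0.5 of the other wild-type libraries, yet far above the knockout. Gm13408 and Gm5586, the other copies of Rps3a1, were 2.51-fold and 4.41-fold lower.

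Rpl34-ps1, the member with the highest wild-type mean of normalized counts, not corrected for length, stood at 354, 264 and 171 normalized counts in the knockout and at 12410, 4959 and 13370 in the wild type, 39.0-fold lower. Wild-type library b was again the low one. The adjusted p of Gm8730 was given as 0 in the authors' deposited table, and it was 8.62e-75 for Gm9625, 1.97e-63 for Rps3a3, 3.44e-55 for Rps3a2 and 7.84e-33 for Rpl34-ps1. Together, Rpl34-ps1, Gm8730, Rps3a3 and Rps3a2 held 11.5%, 11.2%, 9.10% and 6.52% of the sum over the members in the wild type.

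**Figure D2:**
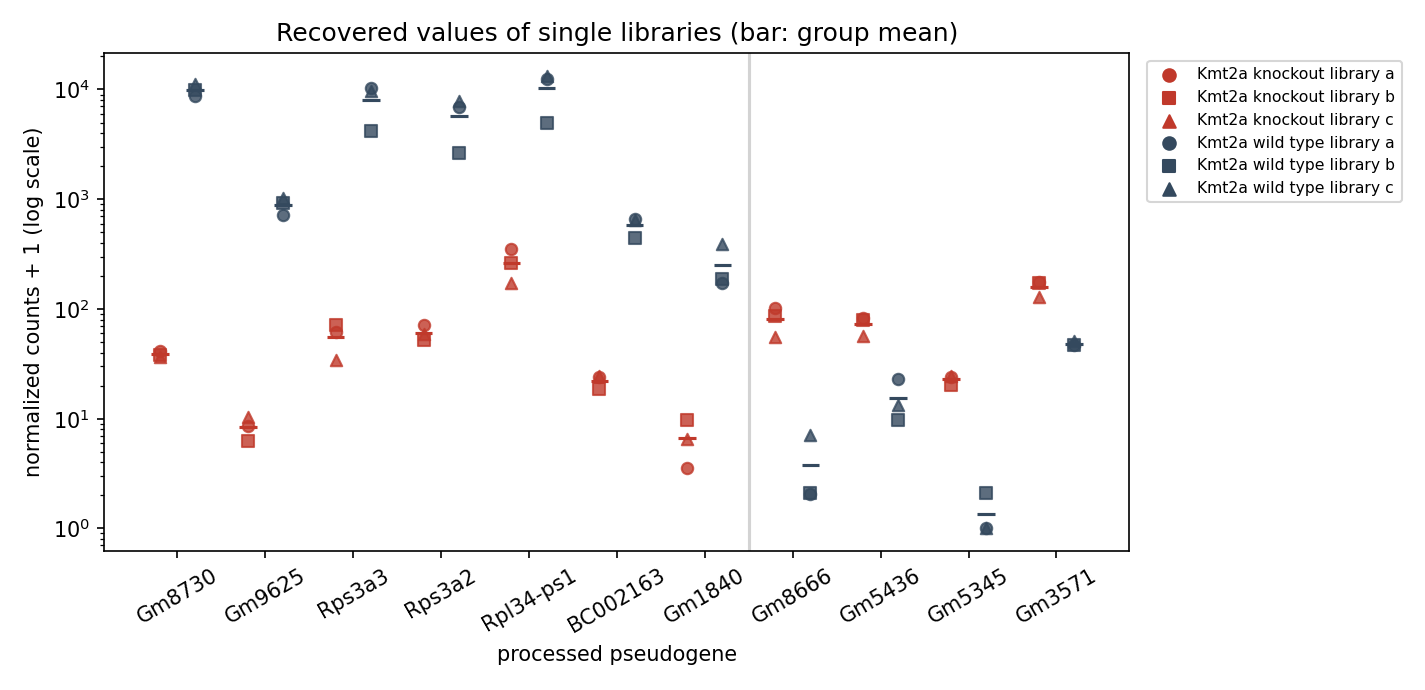
Normalized counts with 1 added (log scale) of 11 members in each recovered library, Kmt2a knockout left of wild type for each gene, with a bar at the group mean; the grey line separates members lower in the knockout from members higher in it. Rps3a3, Rps3a2 and Rpl34-ps1 are lowest in the same wild-type library, b, while Gm8730 is between 8775 and 11160 in all wild-type libraries.

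Of the 84 members whose parent is a gene of the cytosolic ribosome, 81 were lower and 3 higher. Their median log2 ratio was -1.32, and they summed to 20370 normalized counts in the knockout against 72720 in the wild type. They come from 51 parents of both subunits. With edgeR's quasi-likelihood test on the recovered reads, at the authors' largest p of 0.00917, 66 of the 84 were lower, and between 40 and 56 when 1 library was left out. The same test called 129 of all members lower and 16 higher, against 33.1% and 35.7% of the 3870 genes with recovered reads. From 16.5% to 27.7% of these genes were called lower when 1 library was left out.

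Past those already named, the strong members of this group differed less. Rpl3-ps1, a copy of the gene of the large-subunit protein L3, stood at 1174, 1411 and 1160 normalized counts in the knockout, against 3357, 5933 and 6653 in the wild type, 4.26-fold lower. Gm6472, a transcribed copy of the small-subunit gene Rps7, averaged 776.5 ± 95.4 normalized counts in the knockout and 3534 ± 473 in the wild type (SD, n = 3 each). Gm9794, a copy of Rpl23, had the highest knockout mean of normalized counts, not corrected for length, and averaged 2759 ± 338 normalized counts there and 3696 ± 241 in the wild type. Its log2 ratio of -0.42 was past the authors' threshold, with an adjusted p of 0.0374 in the authors' deposited table, and was past the threshold in none of the edgeR fits that left out 1 library. Rps16-ps2, a copy of Rps16, was nearly as close, with 1963 ± 292 in the knockout and 2726 ± 213 in the wild type.

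In several families every copy in the table was lower, while Rps7 and Rpl21 each had 1 lower and 1 higher copy. All 3 copies of Rpl15, a gene of the large subunit, were lower, Gm4294 by a log2 ratio of -1.80, Rpl15-ps2 by -3.54 and Rpl15-ps3 by -3.21. The 3 copies each of Rpl9, Rps2, Rps19 and Rps12 were lower too, with log2 ratios between -0.58 for Rps19-ps6 and -3.73 for Gm14861. The value of Gm14861, a weak copy of Rps19, was -4.52 without knockout library c and -3.14 without knockout library a, and that of Gm17971, a copy of Rps2, was -2.11 and became -2.86 without knockout library b.

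The 3 members of the ribosomal group that were higher in the knockout were Rpl21-ps15, Gm7285 and Gm12165. Rpl21-ps15 stood at 1958, 1767 and 1986 normalized counts in the knockout and at 1348, 1164 and 1530 in the wild type, a log2 ratio of 0.50. Gm7285, a copy of Rps7, averaged 40.8 ± 15.2 in the knockout and 12.8 ± 3.80 in the wild type. Gm12165, a copy of the stalk protein gene Rplp1, rests on 41 reads in the knockout and 3 in the wild type, a ratio of 10.8 per unit of size factor with an exact 95% interval from 3.45 to 54.6 that covers counting error only.

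Copies of other housekeeping genes went the same way in most cases. Both copies of translation elongation factor genes were lower, all 3 of cytoskeletal genes, all 5 of chaperone and cyclophilin genes and both of histone genes. The copies of Ube2j2, Ube2f and Ube2l3 were lower too. Tpt1-ps3, a copy of the gene of translationally controlled tumour protein, averaged 1969 ± 82.7 normalized counts in the knockout and 3284 ± 219 in the wild type (SD, n = 3 each). Of the 9 copies of genes of the respiratory chain and ATP synthase, 7 were lower and 2 higher. In a further listed group of 4 copies, those of Nap1l1, Snrpf and Sf3b4 were lower and that of Ddx6 was higher. No member had a ferritin gene as its closest match, though Gm15590 matched Ftl1-ps1, itself a copy of the ferritin light chain gene. Of the 51 members with other parents, 42 were lower and 9 higher. Of the 7 with no parent found, 3 were lower and 4 higher.

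BC002163 is a copy of Ndufs5, a subunit gene of respiratory complex I. It stood at 23.0, 17.5 and 23.3 normalized counts in the knockout, against 657, 444 and 640 in the wild type, 27.3-fold lower. Hist1h2al, an H2A histone copy whose exon overlaps a microRNA gene on the other strand, had no read in any knockout library and 163, 83 and 149 reads in the wild-type libraries. Set against a floor of 3 reads over the group, it was at least 158-fold lower in the knockout. Its closest match, the histone gene Hist2h2aa1, has 1 exon.

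By the list of glycolysis genes, which left out Eno1b, 7 members had such a parent, namely Gm1840, the 5 copies of Gapdh and Pgk1-rs7. Of the 7, 6 were lower. Among these was Pgk1-rs7, a copy of Pgk1, with means of 5.89 normalized counts in the knockout and 20.9 in the wild type. Gm1840, a copy of the glucose phosphate isomerase gene Gpi1, stood at 2.55, 8.74 and 5.60 normalized counts in the knockout and at 173, 185 and 390.5 in the wild type, 44.3-fold lower. Gapdh, which encodes glyceraldehyde phosphate dehydrogenase, had 5 copies among the members. Gm5559, Gm12070, Gm13394 and Gm14760 were lower by 2.05-fold, 2.78-fold, 3.63-fold and 4.38-fold, and each has at least 34 near-identical genes in the annotation. Gm5345, the fifth and with 90.7% the least like Gapdh, was higher: it had 74 reads in the knockout and 1 in the wild type, a ratio of 58.6 with an exact 95% interval from 10.2 to 2345. Its log2 ratio of 5.89 was 5.31 without wild-type library a or c, neither of which has a read of it. Both copies of Eno1b, an enolase gene counted here with the other parents, were lower. Gm4735 stood at 33.7 ± 7.35 normalized counts in the knockout and 210.3 ± 11.9 in the wild type. Gm5855 had no read in the knockout and 27 reads in the wild type, at least 11.0-fold lower.

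Of the 5 copies of high-mobility group genes, 4 were higher. Gm8666 stood at 100.3, 84.8 and 55.1 normalized counts in the knockout and at 1.04, 1.10 and 6.12 in the wild type, 29.1-fold higher in the knockout. Wild-type library c was above the other two, and without it the log2 ratio of 4.86 became 6.22. Gm11663, the second copy of Hmgn1, had 56 reads in the knockout and 2 in the wild type, a ratio of 22.2 with an exact 95% interval from 5.86 to 187.5. It lies in an intron of Myl4, an atrial myosin gene, on the other strand, and Myl4 itself had means of 804.4 normalized counts in the knockout and 7694 in the wild type. Gm12261 and Hmgb1-ps8, copies of Hmgb1, had 30 and 40 reads in the knockout and none in the wild type, at least 7.19-fold and at least 9.53-fold higher. Hmgb1-ps8 had no read in knockout library b. The fifth, AC166253.1, was lower, with 11.8 ± 1.96 normalized counts in the knockout and 28.8 ± 5.82 in the wild type.

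Further members with higher values in the knockout came from unrelated parents. Gm5436, a copy of the ATP synthase gene Atp5o, stood at 81.6, 78.7 and 56.0 normalized counts in the knockout and at 21.9, 8.82 and 12.2 in the wild type, 5.04-fold higher. Gm3571 and Gm5873, copies of the farnesyl diphosphate synthase gene Fdps of the cholesterol pathway, were 3.33-fold and 4.02-fold higher, the first with 175, 171 and 127 in the knockout, against 45.8, 46.3 and 50.2 in the wild type. Gm12250, for which no parent was found, was 3.83-fold higher by the means, but its wild-type libraries at 43.7, 20.9 and 6.12 differed 7.15-fold, and the log2 ratio of 1.94 became 2.74 without wild-type library a. AC153525.1, a copy of the RNA-binding protein gene Ewsr1, averaged 50.6 ± 17.9 in the knockout and 15.5 ± 8.01 in the wild type.

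The authors' deposited table types 13 members as transcribed processed pseudogenes, a type given for evidence of a transcript of their own, and GENCODE M21 types 12 of these so and Rpl39-ps as a processed pseudogene. All 13 were lower, with a median log2 ratio of -1.29. They summed to 4244 normalized counts in the knockout and 9362 in the wild type. Besides Gm6472, the ones that differed most were Gm4804, Rpl10-ps1, Rps26-ps1, Gm10175 and Rpl39-ps. Rpl39-ps, a copy of Rpl39, stood at 74.8, 101.4 and 74.7 normalized counts in the knockout and at 202, 207 and 203 in the wild type, the tightest wild-type group among the members with a mean of at least 50. Rpl10-ps1 and Gm10175, identical to Rpl10 and to the ATP synthase gene Atp5g2 over their whole length, were 3.61-fold and 2.80-fold lower. Gm4804 had a log2 ratio of -2.82, which was -2.17 without wild-type library c, and Rps26-ps1 one of -1.68, which was -2.33 without knockout library a.

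The share of lower members differed with the likeness to the parent. Of the 97 members with at least 99% identity, 92 were lower and 5 higher. Of the 59 members between 95% and 99%, 50 were lower and 9 higher, and of the 20 members below 95%, 14 were lower and 6 higher. The median identity was 96.6% among the members that were higher in the knockout and 99.3% among those that were lower. These are descriptions with no test, since the members were selected by the authors' threshold.

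For 56 members the parent had a row of its own in the table, which gave 37 distinct parents, 14 higher and 23 lower in the knockout. In 35 of the 56 the member and its parent went the same way, and in 21 they went opposite ways. Of the 21, 19 were members that were lower while the parent was higher. The other 2 were Rpl21-ps15 and AC153525.1, which were higher while Rpl21 and Ewsr1 were lower. Of the 35 that went with their parent, 32 had the larger absolute log2 ratio, with 1 added to the means of the member. Both genes of a pair had to pass the authors' threshold, and a gene with few reads needs a larger ratio to pass it. The median log2 ratio was -1.82 in members with a mean under 50 and -0.70 in those with a mean of at least 500. No conclusion is drawn from the count of 32.

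**Figure D3:**
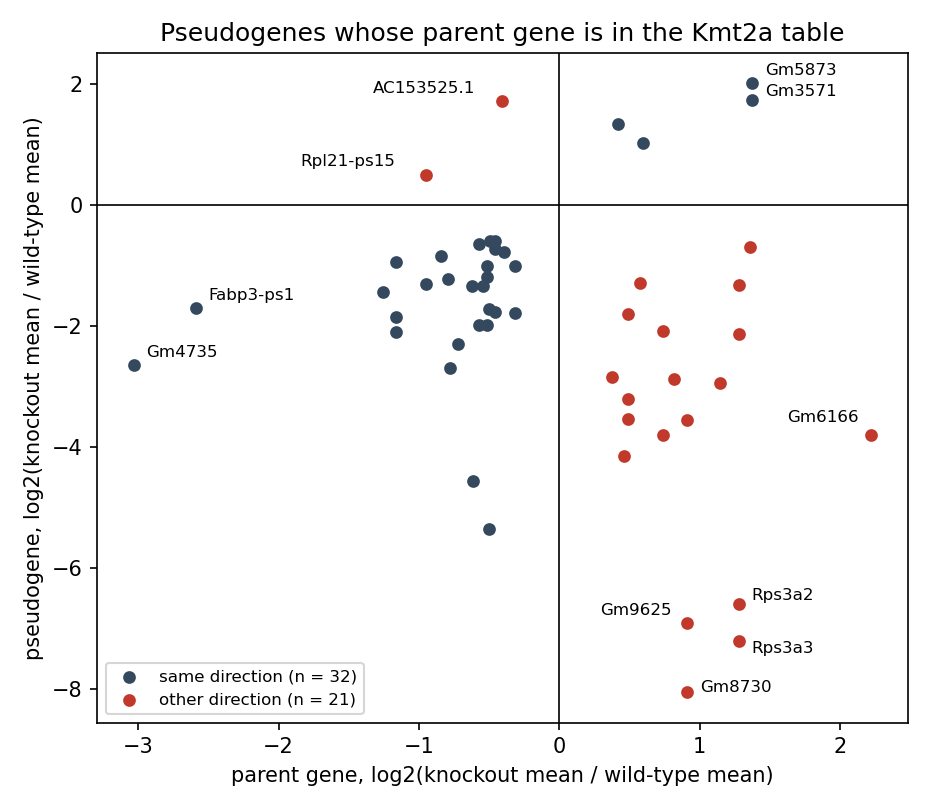
Log2 ratio of the pseudogene (vertical axis) against that of its parent gene (horizontal axis), knockout mean over wild-type mean, for the 53 pairs in which neither gene has a mean of 0; red points went opposite ways. The copies of Rplp0 and Rps3a1 lie at the lower right, with log2 ratios below -6 beside parents at 0.91 and 1.28.

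Rplp0 and Rps3a1, the parents of Gm8730, Gm9625, Rps3a3 and Rps3a2, were higher in the knockout. The parents of Rpl34-ps1, BC002163, Gm1840 and Hist1h2al have no row in the table used here, and the parents of Tdpx-ps1 and Gm13392, both much lower, were lower too, Prdx2 with a log2 ratio of -0.50 and Bri3 with one of -0.62. Rplp0 had means of 19716 normalized counts in the knockout and 10476 in the wild type, and in the authors' deposited table an adjusted p of 5.01e-08. Its 3 copies summed to 46.5 in the knockout and 10880 in the wild type. Parent and copies together came to 19760 in the knockout and 21350 in the wild type, a log2 ratio of -0.11, and the copies made up 0.236% of that total in the knockout and 50.9% in the wild type. Rps3a1 had means of 18141 in the knockout and 7488 in the wild type, with an adjusted p of 0.0314 in the authors' deposited table, and its 4 copies summed to 139.6 and 13940 in those groups. The total was 18280 in the knockout and 21430 in the wild type, a log2 ratio of -0.23. Per kilobase of length, Gm8730 stood at 39.5 normalized counts beside 11884 for Rplp0 in the knockout, and at 10452 beside 6315 in the wild type. Of the 56 members, 3 were above their parent per kilobase in the knockout and 8 in the wild type.

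The same held, in smaller size, for Rpl3 and Rpl15. Rpl3 had means of 13735 normalized counts in the knockout and 8228 in the wild type, and its 2 copies summed to 1251 in the knockout and 5352 in the wild type, so that the total differed by a log2 ratio of 0.14. Rpl15 had means of 5286 in the knockout and 3776 in the wild type, and its 3 copies 226.4 and 944.9, with a total log2 ratio of 0.22. In Rpl21 the signs were turned round: the parent had means of 2253 in the knockout and 4356 in the wild type, while its copies summed to 1915 in the knockout and 1376 in the wild type. The total log2 ratio was -0.46 where that of Rpl21 alone was -0.95.

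Wild-type libraries differed among themselves in the same manner for some families. Rps3a1 stood at 4016, 13717 and 4731 normalized counts in wild-type libraries a, b and c, and its copies summed to 17323, 6901 and 17602 in the same libraries, so that the library with the highest parent had the lowest copies. The total was 21339, 20617 and 22333. Rpl3 stood at 9783, 7321 and 7581 in the wild-type libraries and its copies summed to 3377, 5988 and 6691, with a total of 13160, 13309 and 14271. Rplp0 and its copies showed no such opposed values, with copies at 9507, 10922 and 12206 beside a parent at 9598, 10331 and 11501. The part that the placement of shared reads has in these values was not tested.

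**Figure D4:**
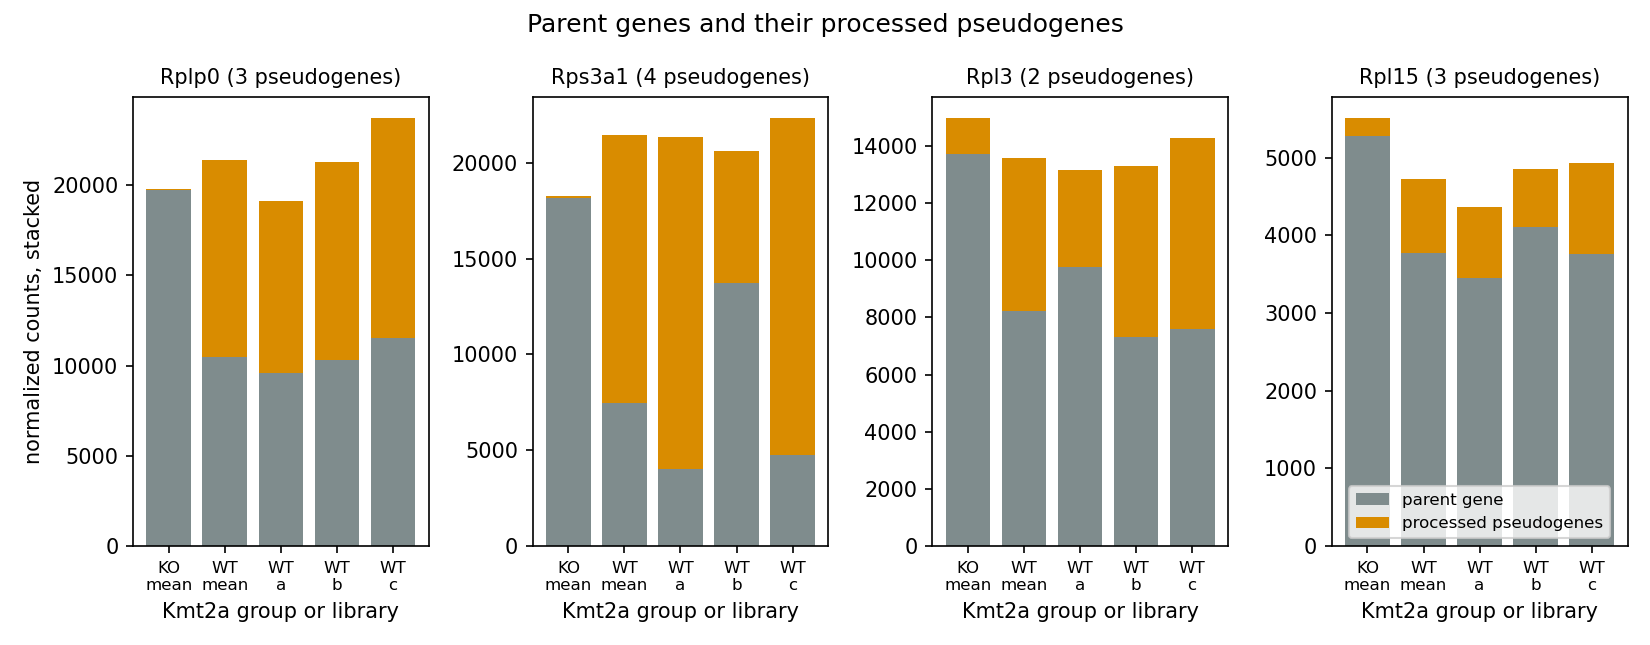
Normalized counts of 4 parent genes (grey) with the sum of their processed pseudogenes stacked on top (orange), as Kmt2a knockout mean, wild-type mean and the 3 wild-type libraries a, b and c. For Rps3a1 the total runs from 20617 to 22333 over the wild-type libraries while the parent runs from 4016 to 13717. For Rplp0 it is not steadier than the parent: the total runs from 19105 to 23707 and the parent from 9598 to 11501.

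Smaller families with opposite directions had other parents. Ncoa4, a ferritin receptor gene, had means of 785.2 normalized counts in the knockout and 306.5 in the wild type, while its copy Gm6768 stood at 168.5 ± 18.8 in the knockout and 272.1 ± 24.0 in the wild type. Fabp5, a fatty acid carrier gene, had means of 2283 in the knockout and 491.1 in the wild type, while Gm6166 stood at 10.2, 9.62 and 11.2 in the knockout and at 167, 219 and 45.3 in the wild type. The total of parent and copy differed by a log2 ratio of 0.72 for Ncoa4 and 1.85 for Fabp5. Rbpj, Dnajc17, Ube2j2, Hdac1 and Hmgb1 were higher as well, beside lower copies in Rbpsuh-rs3, Gm6257, Gm5801, AC159297.3 and AC166253.1. With all copies added, their total log2 ratios were 0.67, 0.79, 0.35, 0.35 and 0.57, in that order. Adding copies that go the other way moves a total against the direction of the parent by arithmetic. In all 13 families with such a copy, the total had a smaller absolute log2 ratio than the parent, and no conclusion is drawn from that count.

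Other parents moved with their copies. Fdps had means of 125.1 normalized counts in the knockout and 48.3 in the wild type, beside 2 higher copies that held 62.2% of the family total in the knockout and 55.1% in the wild type. Eno1b had means of 138.5 in the knockout and 1131 in the wild type, beside 2 lower copies. Rps12 had means of 2983 in the knockout and 6686 in the wild type, beside 3 lower copies. Of the 28 protein-coding genes of the cytosolic ribosome in the table, 23 were lower and 5 higher, with a median log2 ratio of -0.46.

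Among the 101 members with a mean of at least 50, the highest library of a group was a median of 1.33 times the lowest in the knockout and 1.34 times in the wild type. More than 2-fold apart were 9 members in the knockout and 11 in the wild type. Besides Rps3a3, Rps3a2 and Rpl34-ps1, Nudc-ps1, a copy of the nuclear distribution gene Nudc, was low in wild-type library b, with 292.5, 306 and 280 normalized counts in the knockout, against 1541, 657 and 1939 in the wild type. Library c was the low one for Gm15487, a copy of the proton pump gene Atp6v0c, with 75.7, 55.1 and 51.3 in the knockout, against 655, 623 and 88.1 in the wild type. It was also low for Gm9825, a copy of the splicing activator gene Rnps1, with 7.65, 2.62 and 6.53 in the knockout, against 237, 167.5 and 18.4 in the wild type. With 1 library left out, edgeR called Gm15487 in 1 of 6 fits and Gm9825 in 3 of 6.

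The X chromosome holds 16 members, which make up 13.4% of its 119 genes in the table. On the other chromosomes that hold a member, members make up between 1.81% and 8.63% of the genes of the table. Chromosomes without a member are left out of this range. Of the 16 on the X, 13 were lower. An exon of another gene overlaps 11 members, all of them lower, 63 lie in an intron only and 109 overlap no other gene. Without strand information, reads of an overlapping gene cannot be told from those of the member.

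Marker genes of heart muscle, red cells, lung epithelium and macrophages differed between the Kmt2a groups too. All 6 heart muscle genes of a list were lower in the knockout, Myh6 with means of 3162 normalized counts in the knockout and 22860 in the wild type, as were the 4 of 6 red cell genes in the table. Of 9 lung epithelium genes, 5 were in the table, 4 higher and Scgb1a1 lower, and of 12 macrophage genes 3 were in the table, all higher. Their part in the results on the pseudogenes was not tested, and in bulk tissue fewer cells of a type and less RNA per cell cannot be told apart.

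In the Men1 table, 9 of the 183 members had a row, and 174 had none. That table holds genes with an unadjusted p below 0.05 and at least a 2-fold change, so a member without a row may have been unchanged or too weak. Of the 9, 8 were higher and 1 was lower in the Men1 knockout, where 70.1% of the 772 genes of the table were higher. One of them, Hmgb1-ps8, was past the authors' adjusted p, against 1.68% of the 772 genes. Levels were low, and in 8 of the 9 no library was above 56.6 normalized counts.

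Hmgb1-ps8 stood at 13.2, 50.8, 56.6 and 29.6 normalized counts in the Men1 knockout libraries and at 0, 7.03, 15.5 and 3.11 in the wild-type libraries. The lowest knockout library was below the highest wild-type library, and the exact two-sided permutation p was 0.0571, where 4 against 4 libraries cannot go below 0.0286. In the authors' deposited table its log2 fold change was 2.53 and its adjusted p 0.0400. The log2 ratio of the means with 1 added was 2.38, and 3.14 without library WT-6097. In Kmt2a lung, where 1 knockout library had no read of it, Hmgb1-ps8 was higher in the knockout as well.

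In 4 of the 9 the libraries did not overlap, against 35.5% of the genes of the table. Rpl17-ps5, a copy of the large-subunit gene Rpl17, stood at 8.50, 13.1, 20.2 and 13.6 normalized counts in the Men1 knockout and at 1.18, 4.68, 3.87 and 5.18 in the wild type. Gm8566, a copy of the superoxide dismutase gene Sod1, averaged 34.5 ± 9.42 in the knockout and 15.9 ± 4.82 in the wild type (SD, n = 4 each). Gm13408, a copy of Rps3a1, averaged 18.7 ± 3.27 in the knockout and 7.79 ± 4.29 in the wild type. The fourth was AC153525.1, which the Men1 table lists as Gm6627 under the same gene ID, with 34.0, 12.3, 15.4 and 13.6 in the knockout, against 9.46, 4.68, 8.70 and 10.4 in the wild type. Groups that do not overlap always give the smallest possible exact permutation p, 0.0286, so that p adds nothing to the count of 4. The genes of the table were also selected on these same libraries. Gm8566, Gm13408 and AC153525.1 did not pass the authors' adjusted p, and Rpl17-ps5 was given none.

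Gm10335, Gm7331 and Pgk1-rs7 were higher by the means with overlapping libraries. Pgk1-rs7, a copy of the glycolysis gene Pgk1, rests on 16 reads in the knockout and 2 in the wild type. Gm6123, a copy of the pyruvate dehydrogenase gene Pdhb, was the one lower member. It stood at 1.89, 3.63, 5.66 and 4.93 normalized counts in the Men1 knockout libraries and at 86.3, 1.17, 0.966 and 112 in libraries WT-6074, WT-6094, WT-6097 and WT-6100, so that the wild-type group split into high and low libraries and overlapped the knockout, with an exact permutation p of 0.429. The log2 ratio of the means with 1 added was -3.35, and -2.60 without library WT-6100. In Kmt2a lung it was lower too, with 2.32 ± 2.68 in the knockout and 24.4 ± 9.85 in the wild type, a log2 ratio of -3.40 that was -4.84 without knockout library b and -2.81 without knockout library c.

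Of the 9 members, 3 had the same direction in both knockouts: Hmgb1-ps8 and AC153525.1 were higher in both, and Gm6123 was lower in both. The other 6 were higher in the Men1 knockout and lower in the Kmt2a knockout. Rpl17-ps5, for example, averaged 214.8 ± 26.3 normalized counts in the Kmt2a knockout and 350.7 ± 25.3 in its wild type. The tables were normalized separately, so levels are not compared between them, and the difference between the knockouts was not tested.

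**Figure D5:**
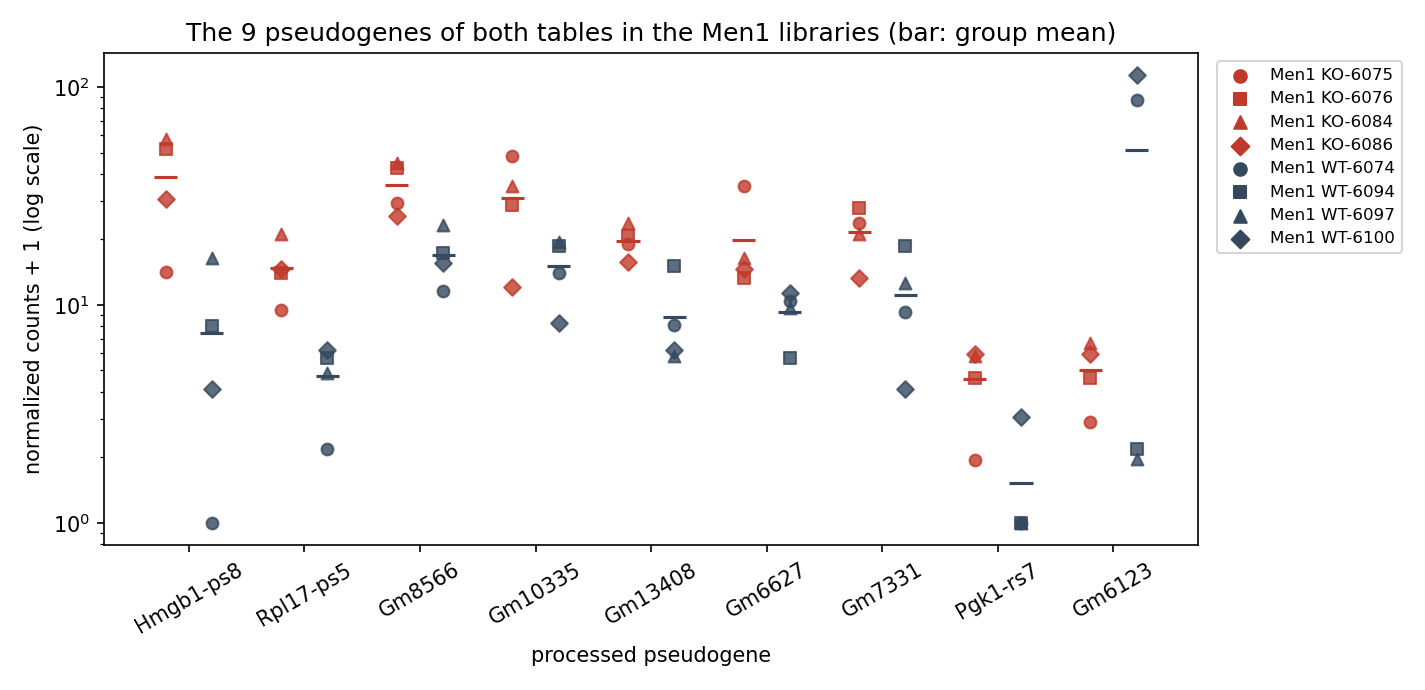
Normalized counts with 1 added (log scale) of the 9 members that have a row in the Men1 table, in each of the 4 Men1 knockout libraries (left of each pair) and 4 wild-type libraries, with a bar at the group mean. In Gm6123, libraries WT-6074 and WT-6100 are at 86.3 and 112 and the others near 1.

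By the GENCODE biotype, 74 genes of the Men1 table are processed or transcribed processed pseudogenes, 55 higher and 19 lower in the Men1 knockout, and 33 of them had libraries that did not overlap. Of all 772 genes of the Men1 table, 70.1% were higher and 35.5% had libraries that did not overlap. The median of the means of the 74 pseudogenes was 6.60 normalized counts in the knockout and 4.93 in the wild type. Besides Hmgb1-ps8, those past the authors' adjusted p were Ldhb-ps and Gm6314. Ldhb-ps, a copy of the lactate dehydrogenase gene Ldhb, stood at 31.2, 29.8, 28.3 and 33.3 normalized counts in the knockout and at 13.0, 14.1, 9.66 and 7.26 in the wild type. Gm6314, a copy of the Costars family gene Abracl, stood at 0.944, 0.726, 2.43 and 1.23 in the knockout and at 249.5, 85.5, 215.5 and 150.3 in the wild type, with a log2 fold change of -7.03 in the authors' deposited table. Neither Ldhb-ps nor Gm6314 has a row in the Kmt2a table used here. Gm6900, a copy of the translation initiation gene Eif1, averaged 56.4 ± 26.4 in the knockout and 22.6 ± 5.21 in the wild type, with an adjusted p of 0.0767 in the authors' deposited table.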

How the data were processed

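RNA of mouse lung was measured in 14 libraries prepared, per the labels' protocols, with a NEBNext Ultra kit that does not mark strand. DESeq2 1.16.1, featureCounts 1.5.0-p3 and HISAT2 2.0.5 are named in the submitters' processing notes, with GRCm38 and mm10, but not what each did. The Kmt2a table, as deposited, holds group means of normalized counts, a signal scaled by the authors with 1 size factor per library, and their log2 fold change, p-value and adjusted p-value. It holds genes with an adjusted p below 0.05, and the knockout is called MLL. Its wild-type column was taken as the Kmt2a wild-type group. The Men1 table, as deposited, holds raw counts and normalized counts per library besides the same statistics, for genes with an absolute log2 fold change of 1 or more and p below 0.05. It gives no adjusted p for 557 of 772 genes, and 2 further wild-type columns were not used.

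Since both tables hold selected genes, the authors' adjusted p is the call. Whole reads per library were recovered from the 15 significant digits of the Kmt2a means, up to 20000 normalized counts. On simulated means, 400 of 400 were resolved to the true reads, and 0 of 400 values without whole reads were. Over the 3870 genes of the table that were resolved in both groups, reads per library ran from 3160756 to 4947229. Genes that were not resolved, among them all with a mean above 20000, are left out of these sums, so they are not the reads of the whole table. The reads of the members ran from 27898 to 85976. Parents were found with blastn 2.17.0 on GENCODE M21 transcripts. As alternatives, edgeR 4.0.16 and DESeq2 1.42.0 (R 4.3.3) were fitted to the recovered reads and to the Men1 counts of the table. Nothing in the labels says whether libraries came from separate animals beyond a number in each title, so p-values measure the spread between libraries.

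The members and lists were chosen with earlier results of these data known. Named genes are those with the largest log2 ratios in each direction after adding 10, the highest means, a mean of 0, the strongest transcribed copies, families of at least 3, and those in the Men1 table. Other genes named in passing, such as Nudc-ps1, Gm15487 and Gm9825, were chosen after their values were seen. Results on withheld genes are not reported here.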

Additional observations from a re-analysis of the deposited data

Results flagged for a closer look

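In 24 groups of 4 Men1 libraries that were screened for a library apart from the others, 2 had one whose gap to its neighbour, as a share of the group's range, was above Dixon's 95% critical value for groups of 4, and chance gives this in about 1 group in 20. For Gm6627 (AC153525.1 in the Kmt2a table), library KO-6075 stood at 34.0 normalized counts, and the other knockout libraries at 12.3, 15.4 and 13.6, a share of 0.861. For Pgk1-rs7, library WT-6100 held the only 2 reads of its group, which gives a share of 1, and without it the log2 ratio of the means with 1 added became 2.20, against 1.60 with it. The Kmt2a groups of 3 were too small for this screen.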

How the results depend on the processing

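No alternative turned the direction of any result that was recomputed. For the Kmt2a log2 ratios most alternatives could not have done so. A number added to both means cannot turn a sign. Leaving out 1 library cannot turn it where the groups do not overlap, as in 182 of the 183 members. Of the recomputed log2 ratios of named genes, 27 in the Kmt2a table and 6 in the Men1 table moved by more than the spread between libraries, and 423 and 114 did not. Of the 159 members lower in the Kmt2a knockout and the 24 higher, 93 and 8 had a mean of at least 50, and 11 higher members had an adjusted p below 0.01. At the authors' largest p, edgeR on all recovered libraries called 129 members lower and 16 higher, against 33.1% and 35.7% of all 3870 genes, and 14 higher with TMM factors, against 30%. With 1 recovered library left out, edgeR called 75 to 105 members lower and 12 to 13 higher, against 16.5% to 27.7% and 20.6% to 29.8% of all genes, with 65 lower and 9 higher members called in all 6 fits. The median log2 ratio was -0.99 with 10 added to the means and -1.09 at a mean of at least 50, and ran from -1.47 to -1.31 with 1 library left out. With parents taken from gene symbols alone, 17 members had one in the table and 5 went the other way. Of the 9 members in the Men1 table, edgeR and DESeq2 on its counts called 0 at the largest p that the authors' calls reached, while 7 by edgeR and 8 by DESeq2 had an unadjusted p below 0.05, against 86.8% and 67.6% of the genes of that table. The 2 alternatives without the 4 members of the highest wild-type means were added after seeing the data, and left 155 lower members and a median of -1.34. No paired analysis was possible because knockout and wild-type libraries share no replicate number. The depth of the recovered libraries limits weak members most: 14 rest on at most 3 reads in one group.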
